A study of Mus musculus with 12 samples.

Results

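Ribosome biogenesis genes encode the proteins that transcribe ribosomal RNA, modify and cut it, and fold it with ribosomal proteins into the small and large subunits. The 54 genes described here were chosen by name, as a list of RNA polymerase I subunits and factors, nucleolar proteins, proteins of small nucleolar ribonucleoproteins (snoRNPs) and processing factors of each subunit. The rule itself uses no measured value, but the list was chosen with earlier results of these data known. All 54 were found among the 54532 genes of the deposited table. RNA-seq of polyadenylated RNA from whole liver was measured in wild-type C57/BL6J mice, with 3 libraries from mice that had a sham operation and 3 each at 3, 6 and 12 h after a 70% hepatectomy, an operation that removes most of the liver and lets the remnant regrow. The series set out to follow expression in the phase before the remnant's cells divide. Neither the hour of the sham operation nor the age or sex of the mice is labelled, and separate mice are not stated for the libraries within a group, so p-values measure the spread between these libraries, which may be technical. Replicate 3 of the 6 h group is titled 6 h but tagged 7 h, and it was kept with its title.

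Making a ribosome begins in the nucleolus, where RNA polymerase I copies the ribosomal DNA into a long precursor. Box C/D snoRNPs guide methylation of that precursor and box H/ACA snoRNPs guide its pseudouridylation, while a large early complex, the small subunit processome, and a separate line of factors cut out and mature the RNAs of the small and large subunits. Hepatocytes, which make up most of the liver's mass, enlarge and raise ribosome production before they replicate their DNA after resection, and the transcription factor Myc is a known regulator of many genes of this pathway.

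Levels are given as FPKM, a count per kilobase of gene scaled between libraries, as deposited. Comparisons of levels between genes depend on the deposited gene lengths. That scaling was not by library totals alone. The median 6 h difference from sham of all tested genes was 0.046 on log2(FPKM + 0.1), -0.32 with library totals and -0.0089 in the main fit below. Differences are on the log2 scale, so 1 is a doubling, and come with a standard error from edgeR's quasi-likelihood test on the read counts. A gene is said to have risen or fallen where its p-value, adjusted over all 11451 genes tested, was under 0.05. A gene was tested where it reached 1 FPKM in at least 3 of the 12 libraries. All 54 members passed that filter. Of these, Rrp1b reached 1 FPKM in none of the sham libraries and in 8 libraries in all, so it passed through the groups in which it was high. Polr1e reached it in 1 sham library, Rrp9, Rrp12 and Ppan each reached it in 2, and the other 49 reached it in all 12 libraries.

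Library totals ran from 15573405 to 17199639 counts, and the biological coefficient of variation was 20.6%. The first sham library was unlike its group. Its correlation with them over all tested genes was 0.950 and 0.956, against 0.989 between the other two, and mitochondrially encoded genes took 11.9% of its counts against 6.26% and 5.52%. Among the members, Rrp9 stood in it at 0.258 times the mean of the other sham libraries, Ppan at 0.259, Nhp2 at 0.345 and Nop10 at 0.391, while Heatr1 stood at 1.70, Utp15 at 1.67, Wdr75 at 1.66 and Pno1 at 1.63. This first library was the lowest of sham for 26 members and the highest for 25. The hepatocyte markers (7 of 7 tested) had summed levels between 38422 and 39986 FPKM in sham, 40021 and 48579 at 3 h, 36205 and 41787 at 6 h, and 24603 and 26110 at 12 h. Neutrophil markers (4 of 10 tested) had sums between 1.69 and 2.23 FPKM in sham, 13.5 and 14.9 at 3 h, 9.50 and 20.3 at 6 h, and 6.69 and 8.01 at 12 h, and none of the 10 lymphocyte markers was tested. The cholangiocyte markers (3 of 6 tested) summed to between 18.5 and 21.2 FPKM in sham, 28.4 and 38.9 at 3 h, 30.3 and 38.3 at 6 h, and 22.6 and 30.4 at 12 h. Endothelial markers (9 of 9 tested) lay between 30.3 and 34.7 FPKM in sham, 44.5 and 56.7 at 3 h, 35.0 and 40.0 at 6 h, and 26.3 and 31.99 at 12 h, and stellate cell markers (10 of 10 tested) between 26.6 and 34.1, 35.2 and 54.4, 35.0 and 38.7, and 31.8 and 37.8. Monocyte and macrophage markers (10 of 12 tested) lay between 70.7 and 91.5 FPKM in sham, 95.3 and 122 at 3 h, 73.3 and 79.4 at 6 h, and 48.4 and 61.9 at 12 h, and red blood cell markers (5 of 6 tested) between 93.0 and 119, 149.5 and 176, 87.9 and 116, and 47.9 and 69.2. No listed marker was at 0 in all libraries. The part of these shifts in the members' differences was not tested, and in whole tissue fewer cells of a type and less RNA per cell cannot be told apart.

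Many members rose at each time. Against sham, 25 of 54 rose at 3 h, 40 at 6 h and 26 at 12 h, with 1 member falling at each time, Dkc1, Ubtf and Rcl1 in turn. Of all tested genes 9.81% rose and 11.7% fell at 3 h, 16.8% and 18.2% at 6 h, and 13.5% and 15.3% at 12 h, so the members' shares of 46.3%, 74.1% and 48.1% were well above the background of rising genes. The median log2 difference of the members was 0.55 at 3 h, 0.74 at 6 h and 0.54 at 12 h, while that of all tested genes was -0.021, -0.0089 and -0.017. Differences ran from -0.56 to 1.58 at 3 h, from -0.67 to 2.06 at 6 h and from -0.61 to 1.47 at 12 h, and 9, 17 and 4 members were at least 2-fold higher. With library totals in place of TMM scaling, 17 rose at 3 h, 24 at 6 h and 27 at 12 h, with medians of 0.37, 0.42 and 0.53, so the place of 6 h as the time with the most rises and the highest median depends on the scaling. Of all tested genes 6.83% then rose at 3 h, 9.15% at 6 h and 13.6% at 12 h. Fitted on the 6 libraries of a comparison alone, 13 rose at 3 h and 27 at 6 h, where 6.67% and 11.9% of all tested genes did. The 3 comparisons share the sham libraries. The count at 3 h fell to 15 without 3 h replicate 3 and 16 without 3 h replicate 2, and that at 12 h to 17 without 12 h replicate 3, whereas without sham replicate 1 the counts were 29 at 3 h and 34 at 12 h. Rises over all 11451 tested genes moved too. At 3 h they went from 1123 to 880, 826 and, without sham replicate 1, 1274. At 12 h they went from 1547 to 981 and, without sham replicate 1, 2597.

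The rise was visible in single libraries. Per library and with TMM scaling, the median over members of the log2 ratio to the sham mean was 0.42, 0.53 and 0.67 at 3 h, 0.84, 0.73 and 0.76 at 6 h and 0.37, 0.61 and 0.63 at 12 h. In the sham libraries themselves it was -0.0095, 0.051 and 0.0026, near 0 because their own mean is the reference. By role, the median in sham replicate 1 ran from -0.53 (box H/ACA proteins) to 0.11 (small subunit factors). Summed over the 54 genes, the level was 324, 402 and 403 FPKM in sham, 511, 543 and 581 at 3 h, 631, 595 and 627 at 6 h and 442, 479 and 487 at 12 h. The summed levels of the 4 groups did not overlap, but Rcl1 weighed heavily in them. Rcl1 alone gave 113, 135 and 120 FPKM of the 3 h sums, and 57.9, 49.2 and 51.9 of the 12 h sums. As a share of each library's counts, the times after resection did overlap. The 12 h shares (0.172%, 0.186%, 0.189%) ran into those of 3 h (0.163%, 0.171%, 0.174%) and 6 h (0.188%, 0.176%, 0.179%). Sham lay below them all (0.120%, 0.146%, 0.144%). In all 3 libraries of the time, 34 members lay above every sham library at 3 h, 44 at 6 h and 30 at 12 h, where 18.9%, 23.1% and 19.7% of all tested genes did so. The group with the highest mean was 6 h for 38 members, 3 h for 8, 12 h for 7 (Ncl, Npm1, Nop56, Dkc1, Utp18, Pno1 and Mrto4) and sham for 1 (Ubtf). These FPKM sums and counts carry the deposited scaling, which was not by library totals alone. Over the 4 groups together, 42 of 54 members differed in edgeR's F-test, where 50.0% of all tested genes did.

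**Figure D1:**
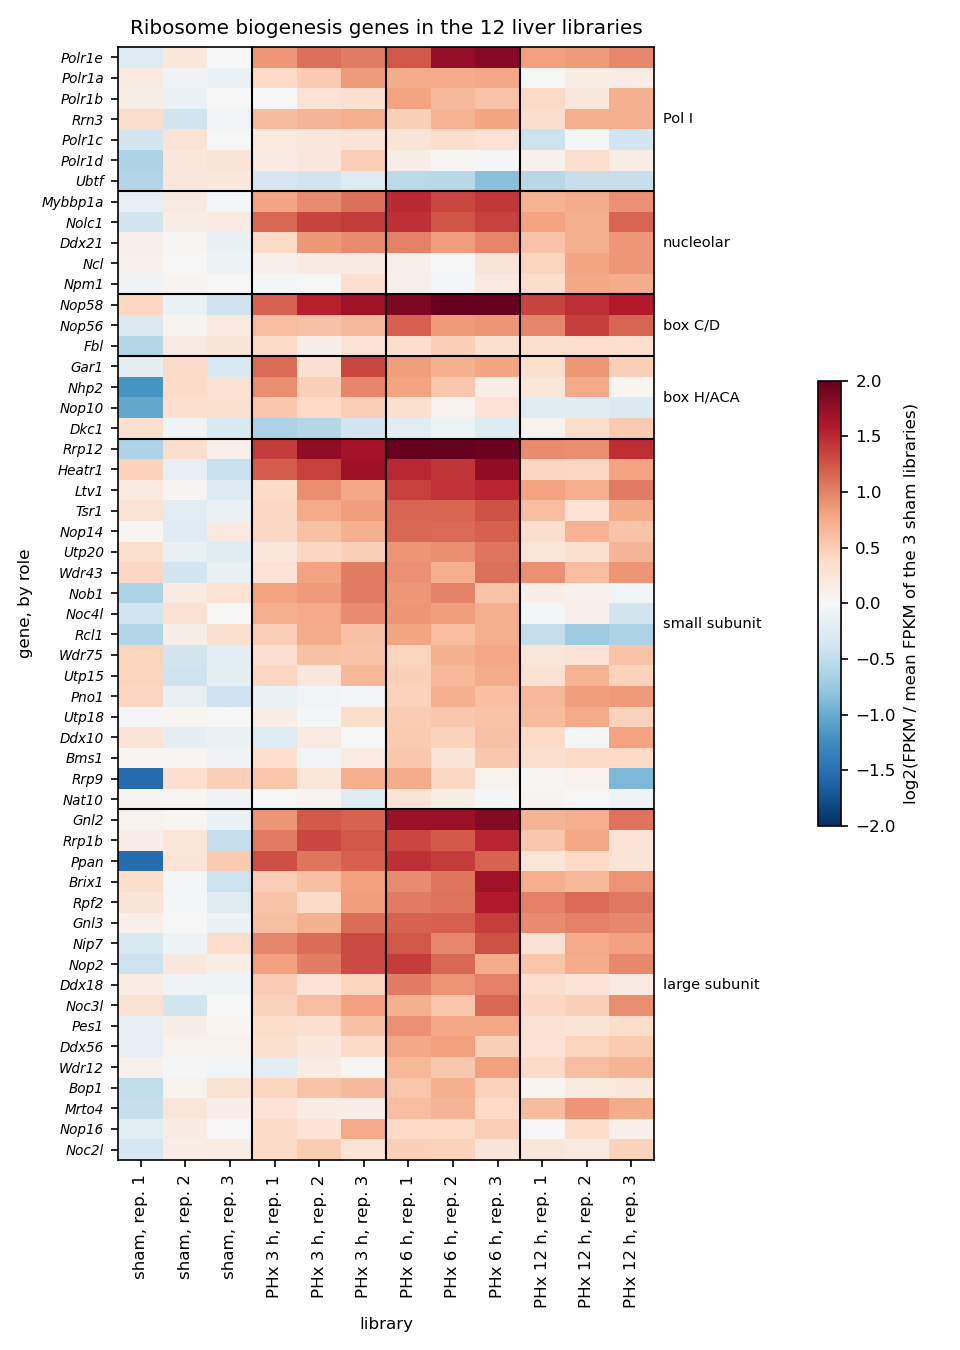
Heat map of the 54 genes (vertical axis, grouped by role and ordered by their 6 h difference) in the 12 libraries (horizontal axis), coloured by the log2 ratio of FPKM to the mean of the 3 sham libraries, with the scale ending at -2 and 2. Most genes are red at 6 h, while Ubtf after resection, Dkc1 at 3 h and Rcl1 at 12 h are blue, and sham replicate 1 differs in colour from the other sham libraries for many genes.

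Within groups, single libraries were high or low for many members at once. The third 3 h library was the highest of its group for 36 of 54 members and the first was the lowest for 35, and at 12 h the first library was the lowest for 33 and the third the highest for 30. The median coefficient of variation of a member's FPKM was 22.5% in sham, 11.03% at 3 h, 9.01% at 6 h and 11.2% at 12 h. Over all tested genes it was 22.3%, 13.3%, 14.1% and 12.7%.

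The E-box CACGTG, the palindromic hexamer that Myc and related factors can bind, stands in the promoter window of 11 of the 49 members that have an entry in the RefSeq promoter table (GRCm38.p6, from 250 bases before to 50 after an annotated start), a share of 22.4% against 8.09% of all genes with an entry. Per window, 20.3% of the members' windows and 7.15% of all 32851 windows hold it. These backgrounds include genes that did not pass the filter here, whereas every member did. Every E-box found in the members' windows is shown, whatever the call of its gene. These 11 genes were all called higher at 6 h under TMM scaling. With library totals the calls of Rrn3 (0.33), Utp18 (0.20) and Pno1 (0.27) were lost. That of Pno1 (0.57 ± 0.18, edgeR adjusted p = 0.0236) was also lost without sham replicate 2 (0.51, edgeR adjusted p = 0.0826), sham replicate 3 (0.40, edgeR adjusted p = 0.0932), 6 h replicate 2 (0.51, edgeR adjusted p = 0.085) or 6 h replicate 3 (0.57, edgeR adjusted p = 0.0553). Each sequence is given on the strand of its gene, 5′ to 3′, with up to 12 bases on either side and the E-box in capitals.
Ltv1 (chr10:13193092-13193121, minus strand): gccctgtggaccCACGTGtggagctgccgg
Mybbp1a (chr11:72441355-72441376, plus strand): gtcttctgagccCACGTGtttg
Nop2 (chr6:125131811-125131840, plus strand): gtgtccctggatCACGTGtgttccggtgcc
Pes1 (chr11:3963965-3963994, plus strand): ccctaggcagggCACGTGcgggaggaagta
Pno1 (chr11:17211540-17211564, minus strand): tgtacaaccacgCACGTGttcctct
Rpf2 (chr10:40246990-40247017, minus strand): aagtaatcggtaCACGTGcattcgctaa
Rrn3, upstream (chr16:13780472-13780501, plus strand): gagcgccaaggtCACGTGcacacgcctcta
Rrn3, near the start (chr16:13780639-13780668, plus strand): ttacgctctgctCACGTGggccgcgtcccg
Tsr1 (chr11:74898092-74898121, plus strand): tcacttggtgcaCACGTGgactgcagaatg
Utp18 (chr11:93885769-93885798, minus strand): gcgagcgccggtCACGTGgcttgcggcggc
Utp20 (chr10:88826765-88826789, minus strand): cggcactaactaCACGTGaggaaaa
Wdr43 (chr17:71616220-71616249, plus strand): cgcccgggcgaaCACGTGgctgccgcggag
Rrn3 is the only one of these genes with a pair of E-boxes, whose first bases lie at -215 and -48 from the start. In Nop2 and Utp18 the E-box lies before the start, at -60 and -20. In Ltv1, Mybbp1a, Pes1, Pno1, Tsr1, Utp20 and Wdr43 it lies just after it, between 3 and 41. Rpf2 has a pair of annotated starts, and its E-box lies at 35 from one and at -26 from the other. Of the 38 matched members without an E-box, 26 rose at 6 h, with a median difference of 0.67 against 0.94 for the 11 with one. At 3 h, 7 of 11 and 16 of 38 rose, and at 12 h 9 of 11 and 14 of 38. A match is a description of the letters and was not tested against binding, and Gnl2, Fbl, Npm1, Rrp12 and Bop1 have no entry.

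RNA polymerase I and its factors were mixed. Of the 7 members, 3 rose at 3 h, 4 rose and 1 fell at 6 h, and 3 rose at 12 h, with median differences of 0.25, 0.63 and 0.18. Polr1e, a subunit of the polymerase's dissociable heterodimer, changed most, from 0.785, 1.09 and 0.947 FPKM in sham to 1.71, 2.03 and 1.93 at 3 h, 2.22, 3.20 and 3.33 at 6 h and 1.67, 1.70 and 1.84 at 12 h. Every library after resection lay above the sham libraries, and the difference at 6 h was 1.60 ± 0.21 (SE, n = 3 against 3, edgeR adjusted p = 6.66e-05). Polr1a, the largest and catalytic subunit, stood at 1.86, 1.56 and 1.51 FPKM in sham, 2.18, 2.36 and 2.96 at 3 h, 2.74, 2.76 and 2.80 at 6 h and 1.65, 1.81 and 1.83 at 12 h. Its 6 h difference was 0.72 ± 0.14 (edgeR adjusted p = 0.00118), and at 12 h its libraries overlapped those of sham (0.09 ± 0.14, edgeR adjusted p = 0.663). Polr1b, the subunit that completes the active centre, was at 2.92, 2.48 and 2.70 FPKM in sham, 2.70, 3.30 and 3.36 at 3 h, 4.71, 4.24 and 3.996 at 6 h and 3.53, 3.13 and 4.44 at 12 h. It rose by 0.65 ± 0.16 at 6 h (edgeR adjusted p = 0.00533), a call lost with library totals (0.34, edgeR adjusted p = 0.0858). The subunits shared with RNA polymerase III, Polr1c and Polr1d, did not pass the test against sham at any time (differences from -0.29 to 0.27). Without sham replicate 1, Polr1c was called lower at 12 h.

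Of the initiation factors, Rrn3, which brings the polymerase to the ribosomal promoter, and Ubtf, which binds the ribosomal DNA, went opposite ways. Rrn3 was at 4.51, 2.68 and 3.42 FPKM in sham, 5.50, 5.68 and 5.87 at 3 h, 4.90, 5.74 and 6.12 at 6 h and 4.50, 5.86 and 5.87 at 12 h. It rose at 3 h (0.65 ± 0.18, edgeR adjusted p = 0.0226), at 6 h (0.63 ± 0.18, edgeR adjusted p = 0.0156) and at 12 h. The 12 h call was lost without sham replicate 2 (0.44, edgeR adjusted p = 0.105) or 3, and without 12 h replicate 2 or 3. It was also lost with the 6 libraries compared alone (0.61, edgeR adjusted p = 0.0916). The 6 h call was lost without sham replicate 2 (0.47, edgeR adjusted p = 0.0683) without 6 h replicate 3 (0.56, edgeR adjusted p = 0.059) and with library totals (0.33, edgeR adjusted p = 0.132), and the 3 h call without sham replicate 2 (0.48, edgeR adjusted p = 0.0838) or 3, or 3 h replicate 2 or 3 (0.63 to 0.64). Ubtf was at 6.37, 11.2 and 11.02 FPKM in sham, 7.56, 7.21 and 7.93 at 3 h, 6.52, 6.46 and 5.34 at 6 h and 6.49, 6.92 and 6.91 at 12 h. Sham replicate 1 was as low as the libraries after resection, so the groups overlap, and the fall at 6 h was -0.67 ± 0.19 (edgeR adjusted p = 0.0126). Without sham replicate 1 it was -0.89 (edgeR adjusted p = 4.04e-05), and the call was lost without sham replicate 2 (-0.54, edgeR adjusted p = 0.0585), sham replicate 3 (-0.55, edgeR adjusted p = 0.0533) or 6 h replicate 3 (-0.58, edgeR adjusted p = 0.0562).

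The 5 multifunctional nucleolar proteins did not all rise at the same time. Of the 5, 3 rose at 3 h and at 6 h and all 5 at 12 h, with medians of 0.71, 0.91 and 0.71. Mybbp1a, a nucleolar protein that binds the polymerase and Myb, was at 6.46, 8.21 and 7.03 FPKM in sham, 12.6, 13.9 and 15.5 at 3 h, 20.4, 18.3 and 19.3 at 6 h and 11.7, 12.1 and 13.6 at 12 h. It rose by 1.39 ± 0.13 at 6 h (edgeR adjusted p = 6.26e-06), and its 6 h libraries lay above all others. Nolc1, a chaperone of snoRNPs, rose by 1.26 ± 0.17 at 3 h, 1.33 ± 0.17 at 6 h and 0.90 ± 0.17 at 12 h, and Ddx21, an RNA helicase that binds ribosomal RNA, by 0.71, 0.91 and 0.71 (SE 0.15 each). The abundant proteins nucleolin and nucleophosmin were late. Ncl was at 13.6, 12.9 and 11.9 FPKM in sham, 13.7, 14.3 and 14.3 at 3 h, 13.7, 12.7 and 15.3 at 6 h and 17.5, 22.1 and 23.4 at 12 h. Npm1 was at 27.0, 29.4 and 28.6 FPKM in sham, 27.7, 28.2 and 35.9 at 3 h, 30.3, 27.6 and 32.1 at 6 h and 36.2, 48.6 and 47.6 at 12 h. For both, all 12 h libraries lay above every other library. At 12 h against sham, Ncl rose by 0.70 ± 0.14 (edgeR adjusted p = 0.002) and Npm1 by 0.63 ± 0.15 (edgeR adjusted p = 0.00635). Against 6 h, the rise at 12 h was 0.61 ± 0.14 for Ncl (edgeR adjusted p = 0.00555) and 0.57 ± 0.15 for Npm1 (edgeR adjusted p = 0.012). The latter call was lost without 6 h replicate 2 (0.52, edgeR adjusted p = 0.0558), 12 h replicate 2 (0.50, edgeR adjusted p = 0.055) or 12 h replicate 3 (0.52, edgeR adjusted p = 0.0507).

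**Figure D2:**
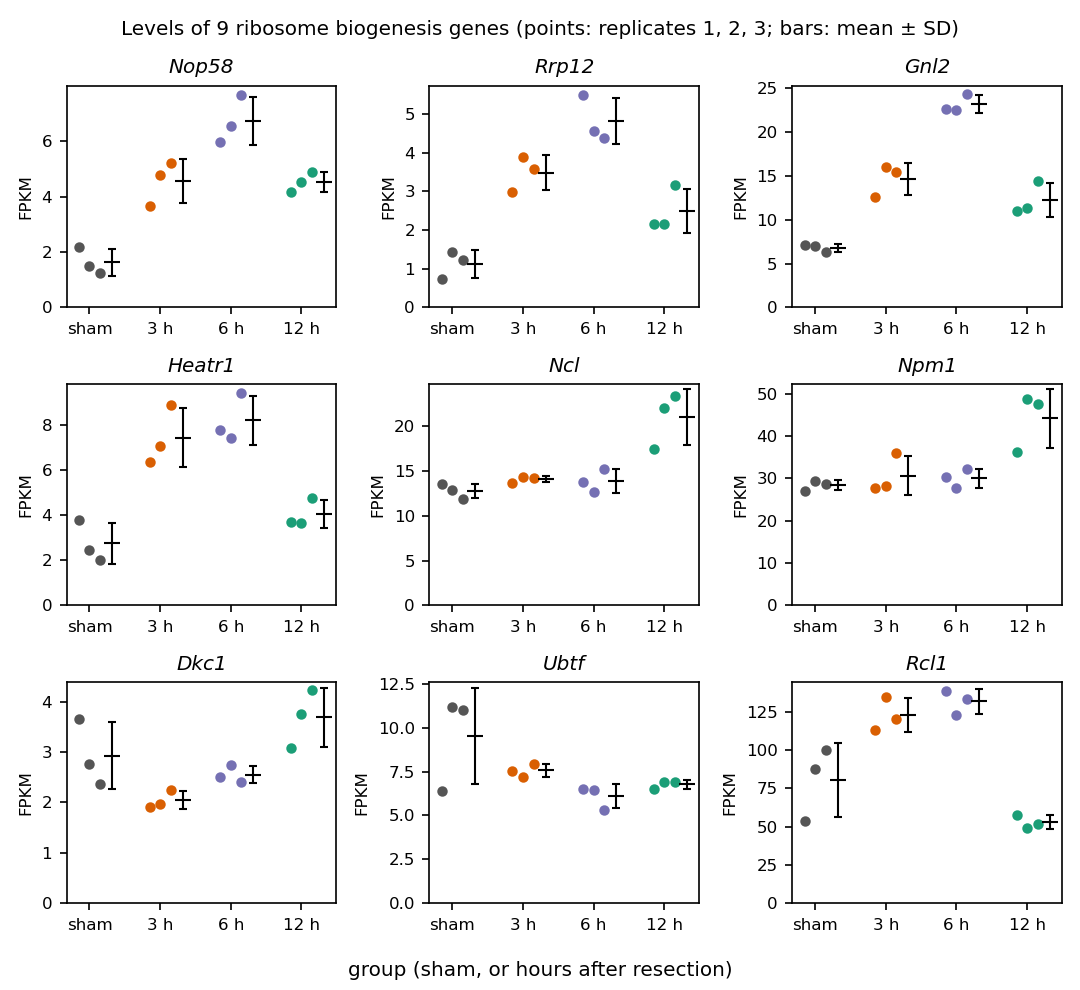
FPKM (vertical axes, from 0) of 9 genes in each group (horizontal axes); points are replicates 1 to 3 and the black bars beside them are the mean ± SD (n = 3). Nop58, Rrp12 and Gnl2 are highest at 6 h, Ncl and Npm1 at 12 h, Dkc1 is lowest at 3 h, Ubtf is low after resection and in sham replicate 1, and Rcl1 is lowest at 12 h apart from sham replicate 1.

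The 3 core proteins of box C/D snoRNPs, which methylate ribosomal RNA, differed in size of change. Nop58 was at 2.18, 1.48 and 1.23 FPKM in sham, 3.67, 4.76 and 5.22 at 3 h, 5.97, 6.55 and 7.66 at 6 h and 4.16, 4.54 and 4.88 at 12 h. All libraries after resection lay above sham, and the 6 h difference of 2.02 ± 0.20, a 4.06-fold rise, had an edgeR adjusted p of 8e-06. Its partner Nop56 was at 3.35, 4.25 and 4.67 FPKM in sham, 6.26, 6.16 and 6.39 at 3 h, 9.39, 7.41 and 7.53 at 6 h and 8.01, 10.7 and 9.11 at 12 h. Nop56 rose by 0.96 ± 0.16 at 6 h (edgeR adjusted p = 0.00048) and by 1.17 ± 0.16 at 12 h (edgeR adjusted p = 0.000211). Fbl, fibrillarin, the methyltransferase of these particles, was at 3.22, 5.39 and 5.72 FPKM in sham, 6.24, 5.20 and 5.84 at 3 h, 6.12, 6.62 and 5.93 at 6 h and 5.98, 6.04 and 6.04 at 12 h. Its differences of 0.23, 0.35 and 0.32 missed the threshold (edgeR adjusted p from 0.164 to 0.425), and the difference in response between Fbl and its partners was not tested.

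Box H/ACA proteins, which convert uridine to pseudouridine and also bind telomerase RNA, showed few calls. Of 4 members, 1 rose and 1 fell at 3 h, 1 rose at 6 h and none was called at 12 h, with medians of 0.60, 0.34 and 0.35. Dkc1, dyskerin, the pseudouridine synthase, was at 3.66, 2.75 and 2.37 FPKM in sham, 1.92, 1.97 and 2.25 at 3 h, 2.51, 2.74 and 2.41 at 6 h and 3.07, 3.76 and 4.23 at 12 h. All 3 h libraries lay below the others, and the fall from sham was -0.56 ± 0.19 (edgeR adjusted p = 0.0469). That call held in 4 of 24 alternatives and was lost without sham replicate 1, its highest sham library (-0.37, edgeR adjusted p = 0.133). Gar1, a structural protein of the same particle, was at 2.47, 3.67 and 2.28 FPKM in sham, 6.15, 3.50 and 7.07 at 3 h, 4.9998, 4.58 and 4.85 at 6 h and 3.50, 5.14 and 3.89 at 12 h. It rose by 0.75 ± 0.27 at 6 h (edgeR adjusted p = 0.0473), and the call held in 11 of 24 alternatives, with 0.62 (edgeR adjusted p = 0.145) without sham replicate 3 and 0.43 (edgeR adjusted p = 0.229) with library totals. Nhp2 and Nop10 did not pass the test at any time against sham (differences of 0.49 ± 0.33 and 0.20 ± 0.26 at 6 h), and both were lowest in sham replicate 1, at 5.70 and 11.2 FPKM against 15.97 to 17.1 and 28.5 to 29.1 in the other sham libraries. Without that library, Nop10 was called lower at 12 h, when it stood at 19.4, 19.5 and 18.8 FPKM.

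Of 18 small subunit factors, 9 rose at 3 h, 15 at 6 h and 7 at 12 h, when 1 fell, with medians of 0.50, 0.73 and 0.46. The 6 h count was 7 with library totals, which lost the calls of Utp15, Wdr75, Utp18, Noc4l, Rcl1, Bms1, Nob1 and Pno1, and 8 with the 6 libraries compared alone. Rrp12, which acts in the late maturation and export of pre-ribosomes, had the largest 6 h difference of the members, 2.06 ± 0.24 (4.16-fold, edgeR adjusted p = 2.79e-05). Its levels were 0.736, 1.43 and 1.22 FPKM in sham, 2.98, 3.87 and 3.56 at 3 h, 5.48, 4.55 and 4.38 at 6 h and 2.17, 2.14 and 3.15 at 12 h, with no overlap between sham and any later group. Heatr1, of the processome's first subcomplex, which also supports transcription by the polymerase, was at 3.79, 2.44 and 2.02 FPKM in sham, 6.37, 7.07 and 8.89 at 3 h, 7.80, 7.42 and 9.45 at 6 h and 3.73, 3.67 and 4.79 at 12 h. Heatr1 rose by 1.40 ± 0.22 at 3 h (edgeR adjusted p = 0.000547) and 1.55 ± 0.22 at 6 h (edgeR adjusted p = 0.00011). At 12 h its libraries overlapped sham (0.55 ± 0.21, edgeR adjusted p = 0.0689), a difference that passed without sham replicate 1, its highest sham library (0.85, edgeR adjusted p = 0.00187). Others of the same subcomplex rose less at 6 h, Wdr43 by 0.90 ± 0.22, Wdr75 by 0.63 ± 0.20 and Utp15 by 0.61 ± 0.21. The last 2 calls held in 18 and 16 of 24 alternatives, and both were lost without sham replicate 2 (0.47 for Wdr75 and 0.44 for Utp15), without sham replicate 3 or without 6 h replicate 2 or 3 (0.53 to 0.60), and that of Utp15 also without 12 h replicate 3 (0.61).

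Among the other processome and pre-ribosome factors, Ltv1, a factor of the late small subunit precursor, rose by 1.42 ± 0.17 at 6 h, Tsr1, a GTPase-like factor of the same precursor, by 1.17 ± 0.18, Nop14 by 1.13 ± 0.15 and Utp20 by 0.94 ± 0.17. Pno1, the partner of the nuclease Nob1, had the highest mean FPKM of the class after Rcl1, at 21.4, 14.4 and 11.9 FPKM in sham and 25.3, 28.4 and 28.6 at 12 h. The 12 h libraries of Pno1 lay above those of sham (0.78 ± 0.18, edgeR adjusted p = 0.00571). Nob1, which makes the last cut of the small subunit RNA, rose by 0.86 ± 0.21 at 3 h and was not called at 12 h (0.04 ± 0.21). Nat10, an RNA acetyltransferase, was at 3.29, 3.21 and 3.00 FPKM in sham, 3.16, 3.29 and 2.68 at 3 h, 3.82, 3.43 and 3.12 at 6 h and 3.28, 3.19 and 2.99 at 12 h, with the smallest 6 h difference of the class, 0.10 ± 0.13 (edgeR adjusted p = 0.617). Rrp9, a protein of the U3 snoRNP, was at 0.863, 3.19 and 3.49 FPKM in sham, 3.68, 2.99 and 4.18 at 3 h, 4.22, 3.34 and 2.64 at 6 h and 2.55, 2.65 and 1.36 at 12 h. The 6 h difference of Rrp9, 0.40 ± 0.40 (edgeR adjusted p = 0.483), became -0.0081 without sham replicate 1.

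Rcl1, a processome protein named for its likeness to RNA cyclases, had the highest FPKM of the 54 members in every library. That ranking depends on the deposited gene lengths, 1803 bases for Rcl1 and 10188 for Ncl. In read counts, Ncl ran from 1990 to 4263 and Rcl1 from 1621 to 3683. Rcl1 was at 53.9, 87.3 and 100 FPKM in sham, 113, 135 and 120 at 3 h, 139, 123 and 133 at 6 h and 57.9, 49.2 and 51.9 at 12 h. The 3 h and 6 h libraries lay above sham and the 12 h libraries overlapped only the lowest, sham replicate 1. The 6 h difference was 0.68 ± 0.19 (edgeR adjusted p = 0.0138), a call lost with library totals (0.36, edgeR adjusted p = 0.188) and with the 6 libraries compared alone (0.67, edgeR adjusted p = 0.0622). The 12 h difference was -0.61 ± 0.19 (edgeR adjusted p = 0.0285). The latter held in 16 of 24 alternatives, and single sham libraries moved it from -0.84 without replicate 1 to -0.55 without replicate 2 (edgeR adjusted p = 0.0948) and -0.42 without replicate 3 (edgeR adjusted p = 0.141). It was also lost without 12 h replicate 2 (-0.56, edgeR adjusted p = 0.0921) or 3 (-0.59, edgeR adjusted p = 0.0907). From 6 h to 12 h Rcl1 fell by 1.29 ± 0.19 (edgeR adjusted p = 0.000419), which held in all 24 alternatives. The summed hepatocyte markers were also lower at 12 h, and their part in the fall of Rcl1 was not tested.

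Large subunit factors had a 6 h count like that of the small subunit class. Of 17, 7 rose at 3 h, 15 at 6 h and 9 at 12 h and none fell, with medians of 0.57, 0.96 and 0.55. The 6 h count was 10 with library totals, which lost the calls of Bop1, Wdr12, Noc3l, Ddx56 and Mrto4, and 11 with the 6 libraries compared alone. Gnl2, a nucleolar GTPase of pre-large-subunit particles, was at 7.14, 7.02 and 6.30 FPKM in sham, 12.6, 15.95 and 15.4 at 3 h, 22.6, 22.4 and 24.3 at 6 h and 10.96, 11.3 and 14.4 at 12 h. Sham, 3 h and 6 h did not overlap, and the 6 h difference was 1.73 ± 0.14 (3.33-fold, edgeR adjusted p = 1.87e-06), the lowest p of the 54 members at that time. Gnl3, nucleostemin, a related GTPase first known from stem and tumour cells, was at 4.11, 3.85 and 3.54 FPKM in sham, 5.80, 6.25 and 8.33 at 3 h, 8.70, 8.73 and 9.98 at 6 h and 7.37, 7.70 and 7.50 at 12 h. Gnl3 rose by 1.23 ± 0.14 at 6 h (edgeR adjusted p = 2.54e-05) and by 0.96 ± 0.14 at 12 h (edgeR adjusted p = 0.000324). Rrp1b was at 0.810, 0.873 and 0.533 FPKM in sham, 1.52, 1.86 and 1.75 at 3 h, 1.87, 1.72 and 2.13 at 6 h and 1.07, 1.26 and 0.894 at 12 h, a 6 h difference of 1.34 ± 0.21 (edgeR adjusted p = 0.000259). Nop2, an RNA methyltransferase known as a proliferation antigen, was at 3.48, 5.45 and 5.14 FPKM in sham, 8.32, 9.58 and 11.7 at 3 h, 12.4, 10.4 and 7.81 at 6 h and 6.89, 7.88 and 9.13 at 12 h, and rose by 1.09 ± 0.21 at 6 h (edgeR adjusted p = 0.00134).

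The 3 proteins of the PeBoW complex, which is needed to process the large subunit RNA, were all called higher at 6 h under TMM scaling. Pes1 was at 6.05, 7.40 and 7.00 FPKM in sham, 8.75, 8.63 and 10.2 at 3 h, 12.8, 11.7 and 11.6 at 6 h and 8.46, 8.28 and 8.78 at 12 h, with a 6 h difference of 0.79 ± 0.13 (edgeR adjusted p = 0.0003). Bop1 was at 4.34, 6.42 and 7.60 FPKM in sham, 8.26, 9.11 and 9.58 at 3 h, 9.03, 9.99 and 8.44 at 6 h and 6.29, 6.91 and 7.04 at 12 h. Its 6 h rise of 0.55 ± 0.18 (edgeR adjusted p = 0.0283) was lost without sham replicate 2 (0.59, edgeR adjusted p = 0.0515), 6 h replicate 1 (0.56, edgeR adjusted p = 0.0592) or 6 h replicate 2 (0.48, edgeR adjusted p = 0.0997), and with library totals (0.23, edgeR adjusted p = 0.362). Wdr12, the third subunit, rose by 0.65 ± 0.14 at 6 h (edgeR adjusted p = 0.00311; 0.34 and 0.0572 with library totals), while at 3 h its difference was -0.05 ± 0.14. Ppan rose by 1.31 ± 0.34 at 6 h, Brix1 by 1.24 ± 0.22, Rpf2, which brings in the small 5S particle, by 1.23 ± 0.19 and Nip7 by 1.13 ± 0.20. Nop16, at 9.31, 12.1 and 10.9 FPKM in sham, 14.1, 13.0 and 18.1 at 3 h, 14.1, 14.1 and 15.2 at 6 h and 10.8, 13.9 and 11.5 at 12 h, missed the threshold at 6 h (0.40 ± 0.16, edgeR adjusted p = 0.0662). Noc2l, at 6.03, 8.33 and 8.42 FPKM in sham, 9.85, 10.8 and 9.20 at 3 h, 10.6, 10.4 and 9.04 at 6 h and 8.93, 8.63 and 10.4 at 12 h, also missed it (0.37 ± 0.16, edgeR adjusted p = 0.0821). Both lay above every sham library at 6 h.

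**Figure D3:**
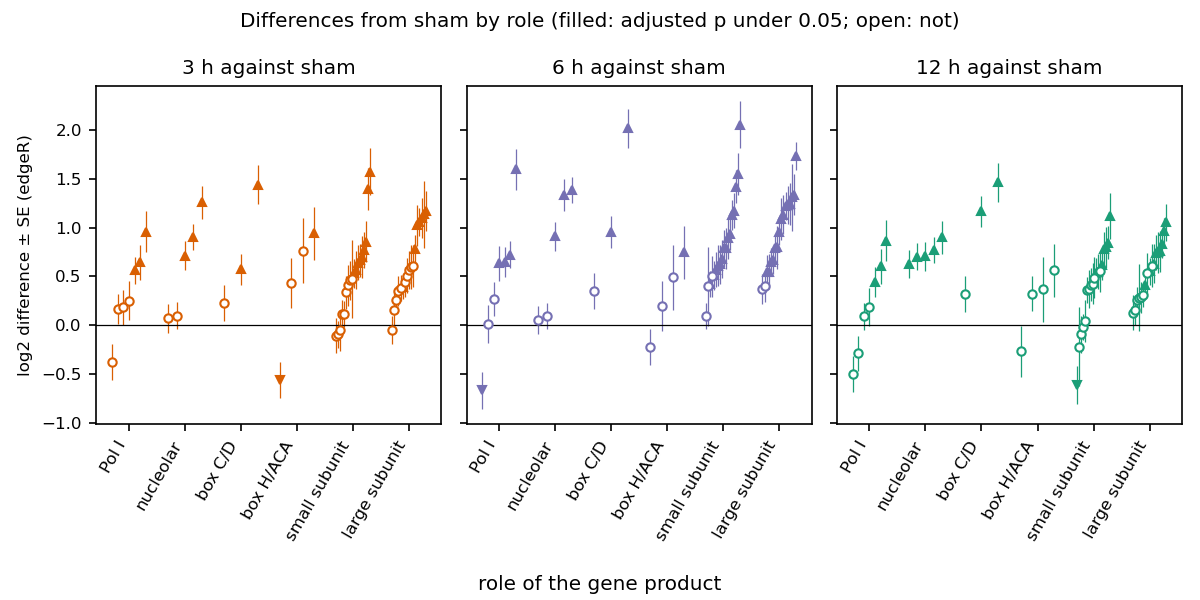
Log2 difference from sham ± SE (vertical axis) of the 54 genes at 3, 6 and 12 h, by role (horizontal axis); filled triangles are genes that passed the test, pointing up or down with the direction, and open circles are those that did not. At 6 h, 15 of 18 small subunit and 15 of 17 large subunit factors are filled upward, while 1 of 4 box H/ACA genes is.

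From 3 h to 6 h few members were called and none fell. Of 54, 9 rose (median 0.20 over all members), where 4.45% of all tested genes rose and 4.18% fell. At an unadjusted p under 0.05 also, 0 fell. They were Mybbp1a, Utp20, Nop14, Ltv1, Pno1, Wdr12, Gnl2, Ddx18 and Rpf2, by between 0.48 ± 0.13 (Mybbp1a) and 0.75 ± 0.17 (Ltv1). None of the 9 calls held in all 24 alternatives, and all 9 were lost in at least 1 fit with a single library left out. Without sham replicate 1, 17 members rose, and without 3 h replicate 1, 1 did. Over all tested genes, 509 rose in the main fit, 1068 without sham replicate 1 and 191 without 3 h replicate 1. The members' median was 0.20, 0.20 and 0.19 in these fits.

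From 6 h to 12 h, 18 of 54 members fell and 3 rose, with a median of -0.26 against -0.037 for all tested genes, of which 12.6% fell and 12.1% rose. All 3 libraries at 12 h lay below every 6 h library for 26 members, and 25.8% of all tested genes did so. By role, 9 of 18 small subunit factors fell (median -0.55), 5 of 17 large subunit factors (median -0.34) and 3 of 7 polymerase members, and none of the box C/D proteins was called. Of the latter, Nop58 (-0.55) was called lower in some alternatives, such as DESeq2, voom and without sham replicate 1. Nop56 was called higher with library totals. Besides Rcl1, the falls included Heatr1 (-1.002 ± 0.21), Rrp12 (-0.93 ± 0.23), Gnl2 (-0.90 ± 0.14), Noc4l (-0.88 ± 0.19) and Ddx18, a helicase of the large subunit pathway (-0.69 ± 0.13). The rises were Ncl, Npm1 and Dkc1, the last by 0.55 ± 0.18 (edgeR adjusted p = 0.0445, held in 9 of 24 alternatives). Without 6 h replicate 2, 11 members fell and 1 rose, while over all tested genes the falls went from 1441 to 906 and the rises from 1387 to 947. The direction of this comparison depends on scaling. With library totals in place of TMM, the median of all tested genes moved to 0.26 and that of the members to 0.039, with 5 members called lower and 5 higher, and the members' median relative to all genes was -0.22 with either scaling. The same scaling put the median of all genes at -0.20 at 3 h and -0.32 at 6 h against sham, and the members' medians relative to it were 0.56 and 0.75, against 0.57 and 0.74 with TMM.

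Other genes of the same pathway moved in the same direction with smaller medians. Of 131 tested from 4 further lists, 30 rose and none fell at 3 h (median 0.32), 66 rose and 1 fell at 6 h (0.53), and 39 rose and 2 fell at 12 h (0.31), beside backgrounds of 9.81%, 16.8% and 13.5% rising. At 6 h, 36 of 59 other large subunit factors, 21 of 47 other small subunit factors, 6 of 13 exosome genes and 3 of 12 other polymerase subunits and selectivity factors rose. Those with the largest differences at 6 h were Rpp38, a protein of the RNase P and MRP ribonucleases (2.46), Eif6, which keeps the subunits apart (1.49), and Nol8 (1.48) for the large subunit, Ngdn (1.31), Bysl (1.28) and Nol10 (1.23) for the small, and Znrd1 (1.06), Taf1d (0.58) and Taf1a (0.58) for the polymerase. Of the exosome, which trims ribosomal RNA ends, Mphosph6 (1.15) and Exosc1 (1.13) rose and Exosc5 fell (-0.95).

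The ribosomal proteins themselves moved less. Of 80 tested cytosolic ribosomal protein genes, 0 were called at 3 h, 5 rose at 6 h, and 6 rose and 1 fell at 12 h, with medians of 0.28, 0.21 and -0.0090. The rising shares of 0%, 6.25% and 7.5% were below the 9.81%, 16.8% and 13.5% of all tested genes. Of 61 translation factors and tRNA synthetases, 7, 33 and 24 rose and 0, 1 and 4 fell at the 3 times (medians 0.20, 0.43 and 0.35), rising shares of 11.5%, 54.1% and 39.3% beside the same backgrounds. The differences between these lists and the members were not tested. Myc was at 0.412, 1.35 and 1.47 FPKM in sham, 3.79, 4.87 and 4.77 at 3 h, 3.08, 2.56 and 2.20 at 6 h and 1.89, 4.88 and 3.54 at 12 h, and every library after resection lay above the sham libraries.

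**Figure D4:**
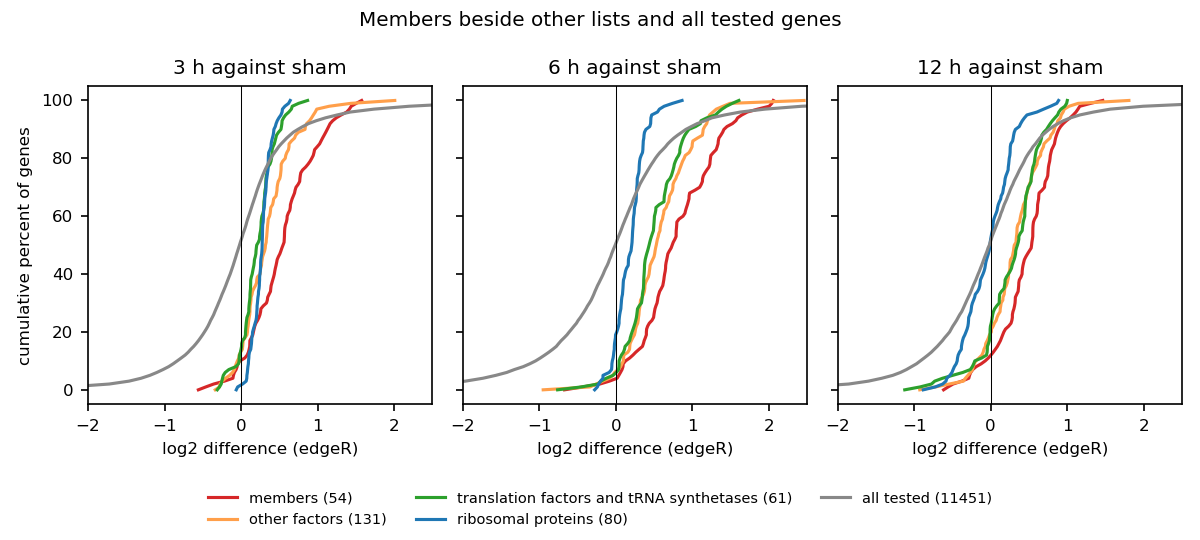
Cumulative percent of genes (vertical axis) by log2 difference from sham (horizontal axis, edgeR) at 3, 6 and 12 h for the members, the other factors, translation factors and tRNA synthetases, ribosomal proteins and all 11451 tested genes, with numbers in brackets. The members' curve lies to the right of that of all tested genes at each time except near its top, with medians of 0.55, 0.74 and 0.54 against -0.021, -0.0089 and -0.017.

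Several members are also host genes of small nucleolar RNAs, which guide the modification enzymes described above. In the deposited annotation, 8 of 54 members (14.8%) hold a total of 23 snoRNA genes within their span on the same strand, against 198 of 9862 tested protein-coding genes (2.01%). They are Nop56 with 5, Nop58 with 4, Ncl, Wdr43 and Gnl3 with 3 each, Tsr1 and Ppan with 2 each and Dkc1 with 1. At 6 h, 6 of these 8 rose (median 1.07), Ncl and Dkc1 being the exceptions. Of all 54 members 74.1% rose then, a like share, and of all tested genes 16.8%. The strand used in counting is not given in the sources used here, and reads where genes overlap could be assigned to either. Of the members described, Mybbp1a overlaps Spns2, Nop56 overlaps Idh3b, Dkc1 overlaps Mpp1, Nhp2 overlaps Rmnd5b, Heatr1 overlaps Lgals8, Rrp9 overlaps Parp3, Tsr1 overlaps Srr, Pno1 overlaps Wdr92, Bop1 overlaps Mroh1 and Gnl3 overlaps Pbrm1, each tested too and on the opposite strand. On the same strand, tested snoRNA genes lie within Nop58 (Snord70 and Gm26287), Wdr43 (Snord53 and Gm22858), Tsr1 (Snord91a and Gm22771) and Nop56 (Snord110).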

How the data were processed

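The deposited table held, for each of 12 libraries, a whole-number read count per gene and an FPKM value; per the file headers it also gave gene lengths and positions. The deposited FPKM were scaled by the authors. The submitters' processing notes name, without their roles, HISAT2 2.0.5 and featureCounts 1.5.0-p3 besides DESeq2 1.20.0, fastp and CASAVA 1.8, and the build GRCm38 (mm10). From the deposited counts, edgeR 4.0.16 in R 4.3.3 fitted 1 quasi-likelihood model of the 4 groups with TMM scaling to genes that reached 1 FPKM in at least 3 libraries. Tests were two-sided with Benjamini-Hochberg adjustment over 11451 genes, and the method was tested on simulated data. Groups came from the sample titles. Alternatives were other scalings, DESeq2 1.42.0, limma 3.58.1 on counts or log2(FPKM + 1 or 0.1), other filters, fewer libraries and a replicate block. The members and lists were chosen with earlier results of these data known. Any member may be named. Values in every library are given for 16 fixed members, for those with the largest and smallest 6 h difference in each role and for members called lower than sham, and other values were chosen after being seen. Of other pathway lists, up to 3 called genes with the largest 6 h difference are named. Promoters came from RefSeq, searched on both strands.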

Additional observations from a re-analysis of the deposited data

Results flagged for a closer look

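Between successive times after resection, the difference from sham was not the same for some members, by edgeR's test of the times against each other. From 3 h to 6 h, 9 of 54 members differed, all higher at 6 h. Of all tested genes, 4.45% were higher and 4.18% lower at 6 h. None of the 9 members' calls held in every alternative. From 6 h to 12 h, 21 of 54 differed, 18 of them lower and 3 (Ncl, Npm1 and Dkc1) higher at 12 h. Of all tested genes, 12.6% were lower and 12.1% higher at 12 h. Among the members, 5 of the 18 falls and 1 of the 3 rises held in every alternative. With library totals in place of TMM scaling, 5 members were called lower and 5 higher.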

How the results depend on the processing

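In 24 alternatives, no called member changed direction. Calls held in all 24 for 13 of 25 rises at 3 h, 23 of 40 at 6 h, 16 of 26 at 12 h, 0 of 9 from 3 h to 6 h, and 5 of 18 falls and 1 of 3 rises from 6 h to 12 h; no fall from sham did. Leaving out 1 library gave 15 to 29 rises and 0 to 1 falls at 3 h, 0 to 1 falls at 6 h, 17 to 34 rises and 0 to 4 falls at 12 h, 1 to 17 rises from 3 h to 6 h, and 1 to 3 rises and 11 to 24 falls from 6 h to 12 h. Over all tested genes, the same fits gave 826 to 1274 rises at 3 h and 981 to 2597 at 12 h. From 3 h to 6 h they gave 191 to 1068 rises, and from 6 h to 12 h 906 to 2229 falls. Library totals gave a median of 0.37 at 3 h, 24 rises, 2 falls and a median of 0.42 at 6 h, 4 rises and a median of 0.065 from 3 h to 6 h, and 5 rises, 5 falls and a reversed median of 0.039 from 6 h to 12 h. Over all tested genes, rises then made up 25.0%, 22.0%, 29.9% and 84.8% of the calls in these 4 comparisons, against 45.5%, 48.1%, 51.5% and 49.0% with TMM. With the 6 libraries compared alone, 13 rose at 3 h, and 0 fell at 3, 6 or 12 h. The fall at 3 h was lost (0) with median-ratio scaling, TMM without mitochondrial genes, voom, limma on FPKM with either pseudocount, no filter and edgeR's own filter. At 12 h falls numbered 2 with DESeq2 or no filter, 0 with limma on FPKM and 4 without both sham replicate 1 and 6 h replicate 3. With log2(FPKM + 1) the medians were 0.63 at 6 h and 0.40 at 12 h. No filter gave 5 rises from 3 h to 6 h. The cause of these changes between settings was not tested. The replicate number was not taken to pair the libraries. Of 18 same-numbered pairs, 4 had correlated deviations over 0.1 (median 0.031), against 10 of 36 differently numbered pairs (median -0.017). With 3 libraries per group these correlations cannot exclude a pairing. With a replicate block, 0 members fell at 3 h and at 12 h and 5 rose from 3 h to 6 h. Depth was alike in all libraries, and the largest standard errors at 6 h were those of Rrp9, Ppan and Nhp2.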

Other observations

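Other promoter motifs were also more frequent in the members' windows. The ETS core CCGGAA stood in 22 of 49 matched members (44.9%, against 16.7% of all genes with an entry) and the GC box GGGCGG in 33 (67.3% against 38.2%), while the TATA box TATAAA stood in 3 (6.12% against 15.7%). At 6 h, 17 of the 22 with CCGGAA and 20 of the 27 without it rose, and 26 of 33 with GGGCGG and 11 of 16 without it. From 3 h to 6 h, 5 of the 11 members with an E-box rose and 3 of the 38 without one, but none of these calls held in every alternative. These shares are descriptions with no test, and the backgrounds include genes that did not pass the filter here. By position, 9 of the 54 members lie on chromosome 11 and 5 on chromosome 1.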
